A study of Homo sapiens with 16 samples.

Results

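The 10 genes described here are human AP-1 and immediate early genes: FOS, FOSB and FOSL1 of the Fos family, JUN, JUNB and JUND of the Jun family, the transcription factors EGR1 and ATF3, the phosphatase DUSP1 and the regulator IER2. They were taken by gene symbol, and all 10 are present in each of the 2 expression tables, which hold 17318 and 18168 genes. The tumours were grown in the brains of nude mice from luciferase-expressing U87 cells, an established human glioblastoma line labelled WT in every group, and were collected at euthanasia. All mice had received exosomes of MSC (the source cells, abbreviated so by the submitters) that carried an siRNA. The 16 libraries, each from its own mouse, fall into 4 groups: siRNA #1 against human Myc (Myc1, n = 3), scramble siRNA #1 (Scr1, n = 4), siRNA #2 against human Myc (Myc2, n = 5) and scramble siRNA #2 (Scr2, n = 4). Myc1 and Scr1 mice received 1e9 exosomes in 100 µl by retro-orbital injection every other day from day 28. The schedule of Myc2 and Scr2 mice and the ages of all mice were not given in the sources used here. No group of untreated mice was analysed here, and the host is a nude mouse, which lacks a functional thymus. Each table was compared only within itself: Myc1 with Scr1 in experiment 1, Myc2 with Scr2 in experiment 2.

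AP-1 is a dimer of basic leucine zipper (bZIP) proteins in which a Jun protein pairs with a Fos protein, another Jun protein or a member of the ATF family, and it binds short DNA elements in promoters and enhancers. Immediate early genes need no new protein for their transcription: growth factor, stress and calcium signals act through kinases of the MAPK and JNK pathways on factors already bound at their promoters, among them SRF with its ELK partners and CREB with ATF proteins. Their RNAs are short-lived, so a tissue sample captures the state of the cells close to the time it was taken, including handling. In glioblastoma, FOSL1 (which encodes FRA-1) and other AP-1 proteins are known as regulators of the mesenchymal state, and MYC is itself a serum-responsive gene.

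The promoters of 9 of the 10 genes matched the RefSeq promoter table by symbol (FOSL1 is not in it), and 5 are shown because they carry the elements through which such signals are known to act. Each is the 250 bases before the RefSeq start on GRCh38.p14, 5′ to 3′ on the gene's strand; capitals mark the motifs searched. The deposited tables were made on other coordinates, and none was carried over.
FOS, chr14:75278578-75278827, plus strand: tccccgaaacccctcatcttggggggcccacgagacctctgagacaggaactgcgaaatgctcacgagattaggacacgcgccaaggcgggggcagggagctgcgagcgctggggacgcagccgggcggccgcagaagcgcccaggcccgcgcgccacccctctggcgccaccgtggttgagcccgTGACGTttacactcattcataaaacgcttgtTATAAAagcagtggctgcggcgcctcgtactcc
EGR1, chr5:138465229-138465478, plus strand: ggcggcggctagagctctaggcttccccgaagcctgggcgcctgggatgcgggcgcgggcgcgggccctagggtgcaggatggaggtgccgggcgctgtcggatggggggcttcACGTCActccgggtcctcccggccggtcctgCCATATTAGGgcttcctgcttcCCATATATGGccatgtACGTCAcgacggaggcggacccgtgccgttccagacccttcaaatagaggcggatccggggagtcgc
JUN, chr1:58784048-58784297, minus strand: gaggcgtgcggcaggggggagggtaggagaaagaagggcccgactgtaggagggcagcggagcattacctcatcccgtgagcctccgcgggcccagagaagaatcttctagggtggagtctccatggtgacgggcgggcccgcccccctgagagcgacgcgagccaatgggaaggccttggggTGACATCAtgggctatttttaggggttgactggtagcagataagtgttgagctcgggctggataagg
JUND, chr19:18281623-18281872, minus strand: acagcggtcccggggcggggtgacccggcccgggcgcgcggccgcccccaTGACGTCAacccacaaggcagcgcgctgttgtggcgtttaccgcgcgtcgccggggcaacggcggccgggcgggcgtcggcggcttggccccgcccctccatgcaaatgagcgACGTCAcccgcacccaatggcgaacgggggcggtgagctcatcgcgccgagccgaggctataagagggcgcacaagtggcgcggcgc
DUSP1, chr5:172771196-172771445, minus strand: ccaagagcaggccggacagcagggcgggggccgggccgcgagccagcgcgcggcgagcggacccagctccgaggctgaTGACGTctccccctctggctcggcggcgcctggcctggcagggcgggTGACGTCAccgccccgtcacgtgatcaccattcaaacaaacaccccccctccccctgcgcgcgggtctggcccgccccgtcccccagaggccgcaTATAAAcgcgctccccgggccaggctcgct

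Searched on both strands, the EGR1 promoter held 2 CArG boxes, the element bound by SRF, from 105 to 96 and from 83 to 74 bases before the start. Such a box was present in 1.16% of the 35116 promoters of that table. None of the other 8 promoters of this group held one within these 250 bases. Bases farther upstream were not searched, so a box there would be missed. The cAMP response element TGACGTCA, the binding site of CREB and ATF proteins, lay in DUSP1 (125 to 118 bases before the start) and JUND (200 to 193) and in 1.65% of all promoters. Its shorter form TGACGT, which also counts each full element, was present in 5 of the 9 (FOS, FOSB, JUND, EGR1 and DUSP1) and in 7.10% of all. JUN and ATF3 each held TGACATCA, 67 to 60 and 123 to 116 bases before the start (2.37% of all promoters), the form at which Jun and ATF2 are known to bind the JUN promoter. These last 2 motifs were added after the sequences had been seen. The TATA element TATAAA was found in FOS, FOSB, JUNB and DUSP1 (10.7% of all). The classical AP-1 element TGACTCA was found in 0 of the 9 (4.20% of all), and the EGR element GCGGGGGCG likewise in 0 of the 9 (4.72% of all). IER2 held none of the 7 motifs. A match describes these letters only.

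Values are log2 CPM, read counts scaled to a common library total on a log2 scale, normalized by the authors so that all libraries of a table have the same distribution. Estimated library sizes ran from 14.2 to 27.2 M (mega) reads apart from Scr1 replicate 3 at 3.14 M and Scr2 replicate 4 at 11.2 M. On the first principal component Scr1 replicate 4 (-61.5), Scr2 replicate 1 (-63.4) and Scr2 replicate 4 (-94.4) lay apart from the rest of their tables, and results that rest on them are given with and without them. All 8 markers fixed for the U87 line were present in both tables, with VIM at 4524 to 6074 CPM in experiment 1 and 3682 to 6044 CPM in experiment 2. MYC, the siRNA target, was at 38.1, 26.5 and 14.3 CPM in Myc1 and at 21.2, 30.2, 50.7 and 108 CPM in Scr1. It was at 55.3, 57.5, 47.0, 72.1 and 42.3 CPM in the tumours labelled Myc2 and at 40.2, 35.3, 47.1 and 25.9 CPM in those labelled Scr2, so its direction in experiment 2 went against the label. The groups of experiment 2 are therefore named as labelled throughout.

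**Figure D1:**
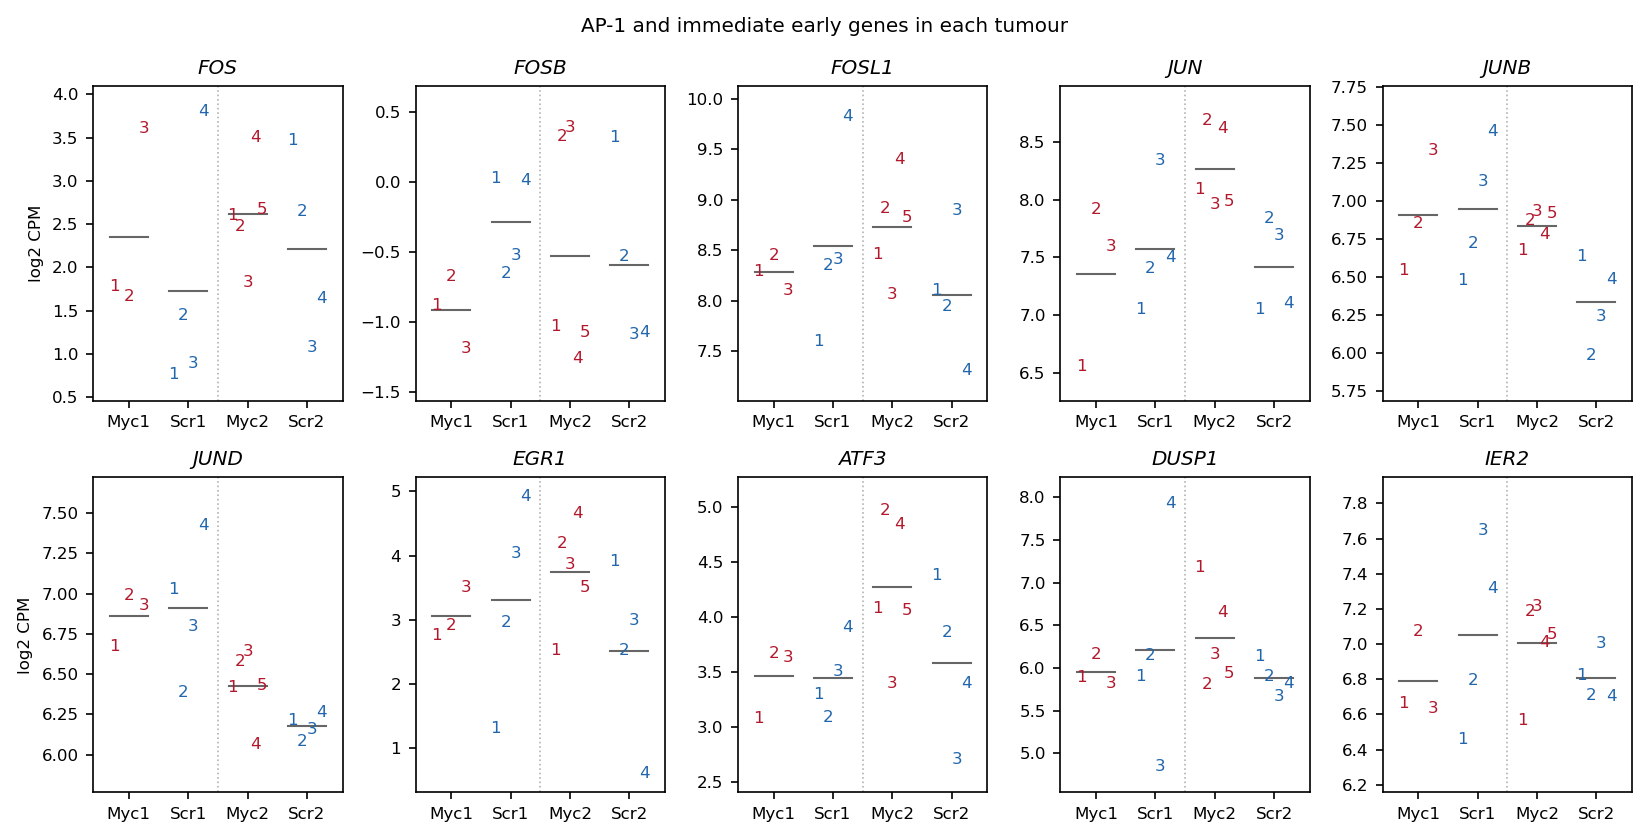
Level of the 10 genes in each tumour, in log2 CPM on a vertical axis scaled to each gene; numerals are replicate numbers, grey bars group means (n = 3, 4, 5 and 4), and the dotted line separates the 2 tables, whose levels are not comparable. Replicate 4 of Scr1 is the highest of its table for 7 of the 10 genes, and JUN and JUNB are the genes whose Myc2 and Scr2 values do not overlap.

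Among the Fos family, FOS, the founding partner of JUN, was low in nearly every tumour. It stood at 3.44, 3.17 and 12.2 CPM in Myc1 and at 1.69, 2.73, 1.86 and 13.9 CPM in Scr1. In each group 1 tumour lay far above the rest, replicate 3 of Myc1 and replicate 4 of Scr1, and the groups overlapped. In Myc2 FOS stood at 6.07, 5.57, 3.56, 11.3 and 6.37 CPM and in Scr2 at 11.1, 6.27, 2.11 and 3.12 CPM. The highest tumour of either group reached about the same level, and both groups spanned most of the range. An estimated 6 reads lay behind the FOS value of Scr1 replicate 3 (95% counting interval 2.202 to 13.1, counting error only), while the other tumours had 28 to 254. Fitted over all genes with limma, FOS differed by 0.63 ± 0.75 (SE) on the log2 scale between Myc1 and Scr1 and by 0.41 ± 0.48 between Myc2 and Scr2, with adjusted p of 0.996 and 0.656. The 95% intervals, -1.05 to 2.30 and -0.64 to 1.46, leave room for differences of either sign. Both values rested on single tumours. In experiment 1 the difference was 1.32 without Scr1 replicate 4 and -0.00097 without Myc1 replicate 3. In experiment 2 it was 0.03 without Scr2 replicate 3, 0.19 without Myc2 replicate 4, 0.22 without Scr2 replicate 4 and 0.83 without Scr2 replicate 1.

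FOSB, the closest relative of FOS, was near the lower limit of the data. It stood at 0.544, 0.626 and 0.438 CPM in Myc1 and at 1.02, 0.637, 0.694 and 1.01 CPM in Scr1. It was at 0.490, 1.25, 1.31, 0.417 and 0.475 CPM in Myc2 and at 1.25, 0.691, 0.469 and 0.475 CPM in Scr2. These values rest on an estimated 2 to 18 reads a library in experiment 1 and 4 to 35 in experiment 2, and FOSB was the only one of the 10 genes below the expression minimum of both fits (1 CPM in at least 3 and at least 4 libraries). In experiment 1 every Myc1 value lay below every Scr1 value. The Myc1 mean was lower by 0.63 on the log2 scale (exact two-sided permutation p = 0.0571 over 35 arrangements, of which the smallest possible p is 0.0286). Groups without overlap occurred in 4.21% of the 13933 genes above the minimum. Scr1 replicate 2 and Myc1 replicate 2, the closest values of the groups, had an estimated 12 and 13 reads, so the gap between them is smaller than counting error. With the minimum lifted, limma gave FOSB an adjusted p of 0.993.

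FOSL1, which encodes FRA-1, had the highest mean level of the 10 per kilobase of exon. It stood at 313, 350 and 275 CPM in Myc1 and at 193, 326, 341 and 909 CPM in Scr1, where replicate 4 held more than any other tumour of the series' first table. In Myc2 it stood at 352, 483, 268, 676 and 452 CPM and in Scr2 at 275, 247, 475 and 158 CPM. In experiment 2, 4 of the 5 Myc2 tumours lay above 3 of the 4 Scr2 tumours, with replicate 3 of Scr2 among the high values. The differences were -0.26 ± 0.43 in experiment 1 and 0.67 ± 0.33 in experiment 2 (limma adjusted p = 0.996 and 0.372). The latter was 0.42 with Scr2 replicate 4 left out and 0.31 with Scr2 replicates 1 and 4 left out.

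JUN, the main transactivating Jun protein, was the gene of the group with the smallest p. It stood at 271, 411, 249, 391 and 253 CPM in Myc2 and at 133, 229, 207 and 137 CPM in Scr2, so the lowest Myc2 tumour lay above the highest Scr2 tumour. The difference was 0.84 ± 0.23 on the log2 scale, 1.79-fold, with a 95% interval of 0.33 to 1.36 (exact two-sided permutation p = 0.00794, the smallest that 126 arrangements allow). Over the 14208 genes tested limma gave an unadjusted p of 0.00387 and an adjusted p of 0.370. Without Scr2 replicates 1 and 4, which held the least JUN, the difference was 0.50 and the exact permutation p 0.0952 over 21 arrangements. In experiment 1 JUN stood at 94.4, 241 and 194 CPM in Myc1 and at 133, 169, 323 and 181 CPM in Scr1. Those groups overlapped widely, with a difference of -0.21 ± 0.35.

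JUNB, a weaker activator that can restrain JUN, stood at 102, 117, 122, 110 and 121 CPM in Myc2 and at 99.4, 63.3, 75.5 and 89.6 CPM in Scr2. The 5 Myc2 tumours lay within a narrow band just above the highest Scr2 tumour. The difference was 0.50 ± 0.16, 1.41-fold, with a 95% interval of 0.14 to 0.86 (exact two-sided permutation p = 0.00794 and limma adjusted p = 0.370). It was 0.72 without Scr2 replicates 1 and 4 (exact permutation p = 0.0476, the smallest for 21 arrangements). In experiment 1 JUNB stood at 93.2, 116 and 161 CPM in Myc1 and at 89.0, 105, 140 and 176 CPM in Scr1, with a difference of -0.04 ± 0.27.

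JUND, the Jun protein least dependent on stimulation, had the smallest spread of the group in experiment 2. It stood at 102, 127 and 121 CPM in Myc1 and at 131, 83.7, 111 and 171 CPM in Scr1. In Myc2 it was at 85.5, 95.6, 99.97, 67.0 and 86.1 CPM and in Scr2 at 74.0, 67.8, 71.4 and 76.6 CPM. In experiment 2, 4 of the 5 Myc2 tumours lay above all Scr2 tumours, and replicate 4 of Myc2 lay below them all. The differences were -0.05 ± 0.24 and 0.25 ± 0.15 (limma adjusted p = 0.997 and 0.419).

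EGR1, a zinc finger factor driven by SRF and ELK proteins, had the widest range of the 10. It stood at 6.78, 7.52 and 11.4 CPM in Myc1 and at 2.47, 7.77, 16.4 and 30.2 CPM in Scr1, where the Scr1 tumours lay on both sides of all Myc1 tumours. In Myc2 it stood at 5.77, 18.3, 14.6, 25.3 and 11.3 CPM and in Scr2 at 15.1, 5.76, 7.96 and 1.53 CPM. Replicate 4 of Scr2, with an estimated 16 EGR1 reads, was the lowest of the 9. The difference of 1.24 ± 0.60 in experiment 2 was the largest of the group there and had an adjusted p of 0.372 by limma, against -0.24 ± 0.75 in experiment 1. It was 0.61 with Scr2 replicate 4 left out and 1.71 with Scr2 replicate 1 left out, the lowest and highest of the 9 such omissions.

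ATF3, a bZIP repressor and activator induced by stress, stood at 8.43, 12.7 and 12.4 CPM in Myc1 and at 9.82, 8.46, 11.3 and 14.9 CPM in Scr1. The groups lay on top of each other, with a difference of 0.02 ± 0.31. In Myc2 it stood at 16.9, 31.2, 10.5, 28.6 and 16.6 CPM and in Scr2 at 20.7, 14.5, 6.51 and 10.5 CPM. Replicates 2 and 4 of Myc2 were above all other tumours, and the difference was 0.68 ± 0.38 (limma adjusted p = 0.394), or 0.39 without Scr2 replicate 3.

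DUSP1, a nuclear phosphatase that switches off MAPK and JNK, stood at 59.2, 71.7 and 56.4 CPM in Myc1 and at 59.9, 70.9, 28.7 and 244 CPM in Scr1. The Scr1 group held both the lowest and the highest tumour of its table, replicates 3 and 4, and 2 values inside the Myc1 range. In Myc2 DUSP1 stood at 145, 56.1, 71.5, 100.4 and 61.5 CPM and in Scr2 at 70.2, 59.8, 50.9 and 56.4 CPM, with replicates 1 and 4 of Myc2 above the rest. The differences were -0.25 ± 0.64 and 0.47 ± 0.26 (limma adjusted p = 0.996 and 0.396), the latter 0.26 without Myc2 replicate 1. IER2, an induced nuclear regulator, stood at 101, 135 and 99.2 CPM in Myc1 and at 87.8, 111, 201 and 160 CPM in Scr1. It was at 94.7, 146, 149, 129 and 133 CPM in Myc2 and at 113, 104, 129 and 104 CPM in Scr2. Its differences were -0.26 ± 0.27 and 0.20 ± 0.17 (0.31 without Myc2 replicate 1), and its groups overlapped in both tables.

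**Figure D2:**
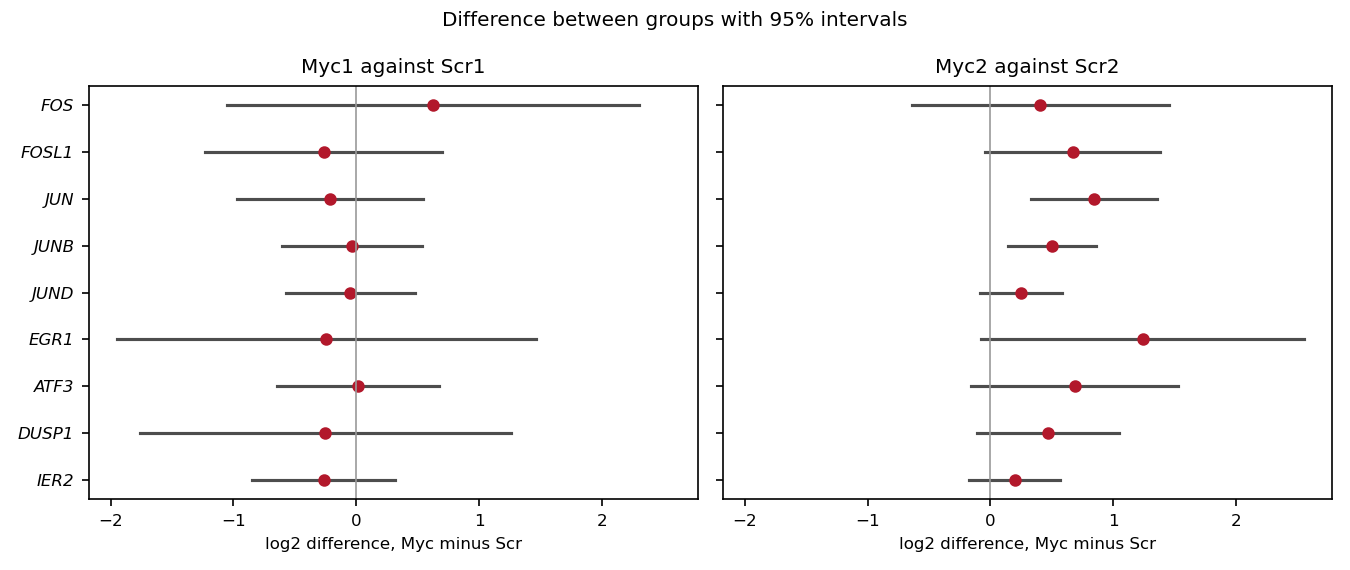
Log2 difference between the labelled Myc and Scr groups for the 9 genes above the expression minimum, with 95% limma intervals (points, estimates; lines, intervals; experiment 1 left, n = 3 and 4; experiment 2 right, n = 5 and 4). All 9 intervals of experiment 1 cross 0; in experiment 2 all 9 estimates lie above 0 and the intervals of JUN and JUNB do not reach 0.

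As a group, the genes lay around 0 in experiment 1 and above 0 in experiment 2. In experiment 1, 2 of the 9 tested genes lay above 0 and 7 below, with a median log2 difference of -0.21 against -0.0028 for all 13933 genes tested. At an unadjusted limma p under 0.05 there were 0 of the 9, where 3.48% of all genes passed, and at an adjusted p under 0.05 there were 0 of the 9, where 0% of all genes passed. In experiment 2, 9 of the 9 lay above 0, where 48.2% of all 14208 genes did, and the median was 0.50 against -0.018 for all genes. JUN and JUNB, 2 of the 9, were higher at an unadjusted p under 0.05, where 7% of all genes were higher. The same 2 of the 9 had groups that did not overlap, where 1.4% of all genes did so in that direction. At an adjusted p under 0.05 there were again 0 of the 9, and 0% of all genes passed. The 9 genes were measured in the same tumours and are not independent of each other. Without Scr2 replicates 1 and 4, all 9 remained above 0 with a median of 0.56. JUNB (unadjusted p = 0.00101) was then the only one of the 9 under 0.05 by limma, where 486 of all 14208 genes were, in either direction.

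The direction in experiment 1 depended on single tumours. Without Scr1 replicate 4, 7 of the 9 genes lay above 0 and the median was 0.16. FOS alone was then under an unadjusted limma p of 0.05 (p = 0.0321, a moderated test over all genes, not a permutation test). With Myc1 replicate 1 or Scr1 replicate 3 left out, 5 of the 9 lay above 0. With Myc1 replicate 2, Scr1 replicate 1 or Scr1 replicate 2 left out it was 1 of the 9, and with Myc1 replicate 3 left out 0 of the 9. In experiment 2 all 9 lay above 0 under each omission of 1 library, and JUN and JUNB were under an unadjusted p of 0.05 each time. Up to 4 of the 9 were, without Myc2 replicate 3 (also FOSL1 and ATF3) or without Scr2 replicate 1.

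The differences of the 2 experiments were also set against each other in 1 model. Each siRNA was used in 1 experiment only, with its own table and normalization, so siRNA and experiment cannot be told apart. The contrast, the experiment 1 difference minus the experiment 2 difference, was below 0 for 8 of the 9 genes, where 48.3% of the 13742 genes in that fit were below 0; FOS (0.22 ± 0.92) was the exception. JUN had the smallest p, with a contrast of -1.06 ± 0.44 (unadjusted limma p = 0.0282, adjusted p = 0.527, exact permutation p = 0.0687 over 4410 arrangements within the tables). It was the 1 of 9 under an unadjusted p of 0.05, where 8.73% of all genes were, and 0 of 9 passed the adjusted threshold, where 0% of all genes did. EGR1 had the widest contrast, -1.48 ± 1.02, and MYC itself had -1.40 (exact permutation p = 0.0580). The MYC contrast ran from -1.74 to -0.96 with 1 library left out.

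Some tumours were high or low for most of the 10 genes. Replicate 4 of Scr1 was above the table's mean for 10 of the 10 genes, by 0.92 log2 units on average, and the highest tumour for FOS, FOSL1, JUNB, JUND, EGR1, ATF3 and DUSP1. It also held the most MYC of its table. Replicate 3 of Scr1, the shallowest library, had the most JUN and IER2 and the least DUSP1, and replicate 1 of Scr1 was lowest for 5 of the 10. Replicate 1 of Myc1 was below the mean for all 10 genes. In experiment 2 replicate 4 of Scr2 was below the mean for all 10, by 0.71 on average, and no Scr2 tumour was the highest for any of the 10. The highest Myc2 tumour differed by gene: replicate 3 for FOSB, JUNB, JUND and IER2, replicate 4 for FOS, FOSL1 and EGR1, replicate 2 for JUN and ATF3, and replicate 1 for DUSP1.

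**Figure D3:**
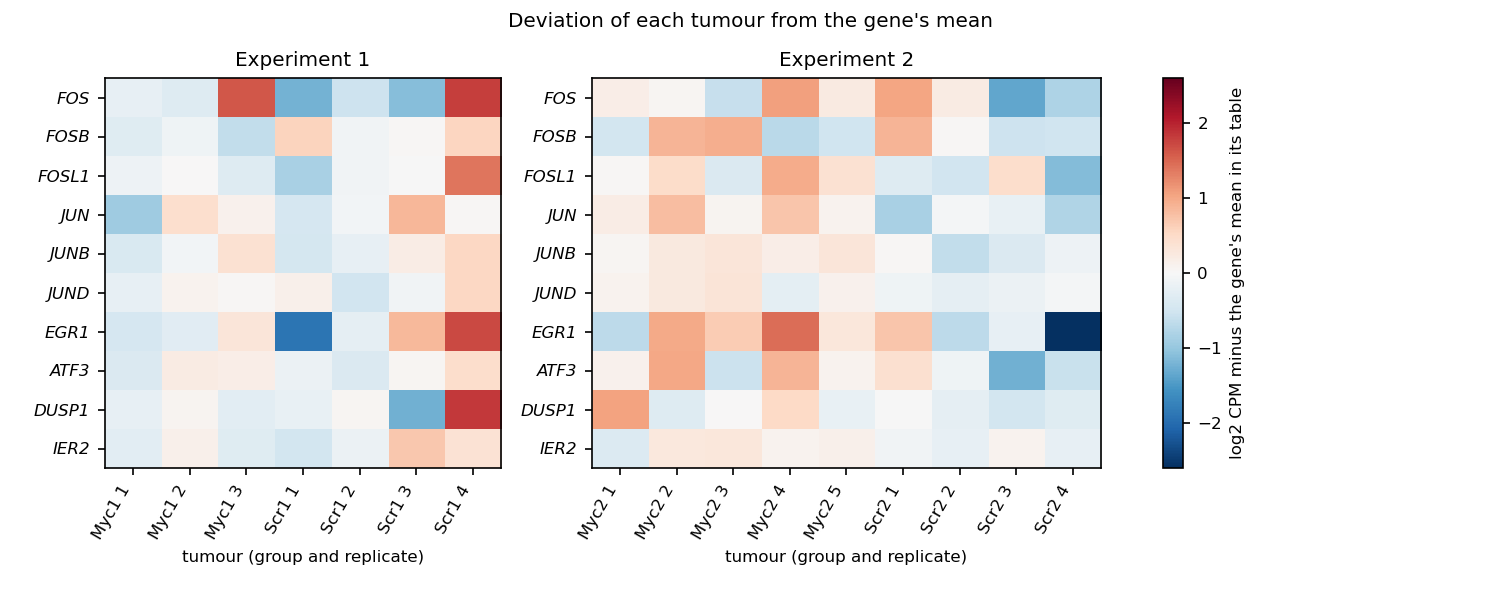
Deviation of each tumour from the gene's mean in its table, in log2 CPM (rows, the 10 genes; columns, tumours by group and replicate; red above and blue below the mean). The Scr1 replicate 4 column is above the mean for 10 of 10 genes and the Scr2 replicate 4 column below it for 10 of 10.

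The genes differed in how much they varied. EGR1 spanned 12.2-fold from the lowest to the highest tumour in experiment 1 and 16.6-fold in experiment 2, and its SD was larger than that of 96.9% and 96.4% of the genes tested. FOS spanned 8.23-fold and 5.35-fold, with an SD above 97.5% and 87.9% of genes. DUSP1 spanned 8.51-fold in experiment 1 (94.4% of genes had a smaller SD), where Scr1 replicates 3 and 4 set both ends, and 2.84-fold in experiment 2 (62.5%). ATF3 did the reverse, with 1.77-fold (34.7%) and 4.79-fold (84.3%). JUND spanned 2.05-fold and 1.49-fold, with only 37.4% and 11.1% of genes varying less, and IER2 spanned 2.28-fold and 1.57-fold (60.7% and 14.3%). JUND and IER2 were thus among the steadier genes of experiment 2, while EGR1 was near the top of the spread in both tables.

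Levels between genes were compared as CPM per kilobase of exon (all annotated exons of GENCODE release 29, merged, so that the isoforms in use are not resolved). In experiment 1, by mean log2 level, FOSL1 led with an arithmetic mean of 205 CPM per kb. JUNB (69.1), JUND (64.9), JUN (53.9), IER2 (41.6) and DUSP1 (41.8) followed, and neighbours among these 5 overlapped over the tumours. The next step was more than 10-fold in these mean levels, to EGR1 (3.76), ATF3 (2.76) and FOS (1.72 CPM per kb), which overlapped as neighbours too, and FOSB was last with 0.128. Among neighbours in this order, no tumour overlapped between FOSL1 and JUNB, DUSP1 and EGR1, and FOS and FOSB. DUSP1, farther down, did overlap FOSL1: its highest tumour reached 121 CPM per kb and the lowest FOSL1 tumour 102. In experiment 2 the order was FOSL1 (199 CPM per kb), JUN (71.6), JUNB (55.0), JUND (43.2), IER2 (39.8), DUSP1 (37.0), ATF3 (4.29), EGR1 (3.74), FOS (1.90) and FOSB (0.137). There only the steps from DUSP1 to ATF3 and from FOS to FOSB were free of overlap. Of the 3 Fos genes here, FOSL1 thus held nearly all the RNA per kb in both tables, while the 3 Jun genes lay close to each other.

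Pairs of the 10 genes were correlated across all tumours of a table, both groups pooled, as a description only. Of 45 pairs, 39 had a positive Pearson r in experiment 1 (median 0.52, n = 7 tumours) and 38 in experiment 2 (median 0.34, n = 9). All share the libraries and the normalization of their table, and in each pair the 2 tumours farthest from the median of the first gene were then left out, which left 25 and 28 pairs positive. The share of positive pairs among all genes was not computed, so these counts have no background to be set against. JUNB and EGR1 were the closest pair of experiment 1 (r = 0.882, permutation p = 0.00377, adjusted 0.194; rho = 0.929, permutation p = 0.00675, adjusted 0.371). Their r was 0.876 without 2 tumours, and 0.510 in experiment 2 (permutation p = 0.164, adjusted 0.489; rho 0.583, permutation p = 0.108, adjusted 0.527). FOS and ATF3 were the closest pair of experiment 2 (r = 0.841, permutation p = 0.00529, adjusted 0.194; rho = 0.70, permutation p = 0.0433, adjusted 0.426). Their r was 0.623 without 2 tumours. The r of FOSL1 and EGR1 was much lower when 2 tumours were left out. Their r was 0.853 in experiment 1 (permutation p = 0.0355, adjusted 0.328; rho 0.643, permutation p = 0.139, adjusted 0.527) and -0.07 without Scr1 replicates 4 and 1. It was 0.748 in experiment 2 (permutation p = 0.0187, adjusted 0.278, and rho 0.733, permutation p = 0.0311, adjusted 0.426) and 0.17 without Scr2 replicate 4 and Myc2 replicate 4. Leaving out the extreme values of FOSL1 also narrows its range, which by itself lowers r. The drop therefore cannot show that the relation rests on those tumours. In the family of 110 pairs that includes MYC, 0 passed after Benjamini-Hochberg adjustment of the permutation p.

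Of the 10 genes, FOSL1 had the highest Pearson r with MYC over all tumours in both tables. Pearson's r was 0.853 over the 7 tumours of experiment 1 (permutation p = 0.0244, adjusted 0.298), with Spearman's rho 0.714 (permutation p = 0.0881, adjusted 0.510). Over the 9 tumours of experiment 2 r was 0.877 (permutation p = 0.00246, adjusted 0.194) and rho 0.883 (permutation p = 0.00308, adjusted 0.338). Without the 2 tumours farthest from the median in FOSL1, replicates 4 and 1 of Scr1, r was 0.725, and without Scr2 replicate 4 and Myc2 replicate 4 it was 0.583. FOSL1 was not first by every measure. In experiment 1 IER2 had a rho of 0.786 with MYC, and FOSB an r of 0.816 without its 2 farthest tumours. In experiment 2 JUN (0.779) and ATF3 (0.701) had a higher r without their own 2 farthest tumours. For JUN and MYC r was 0.819 in experiment 2 (permutation p = 0.00752, adjusted 0.207; rho 0.800, permutation p = 0.0138, adjusted 0.380; 0.779 without 2 tumours) and 0.117 in experiment 1 (permutation p = 0.810, adjusted 0.900). The difference between the tables was not tested. Each r pools both groups of a table. JUN, FOSL1 and MYC all had higher means in Myc2 than in Scr2, so the group difference is part of r in experiment 2. An r within groups was not computed.

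**Figure D4:**
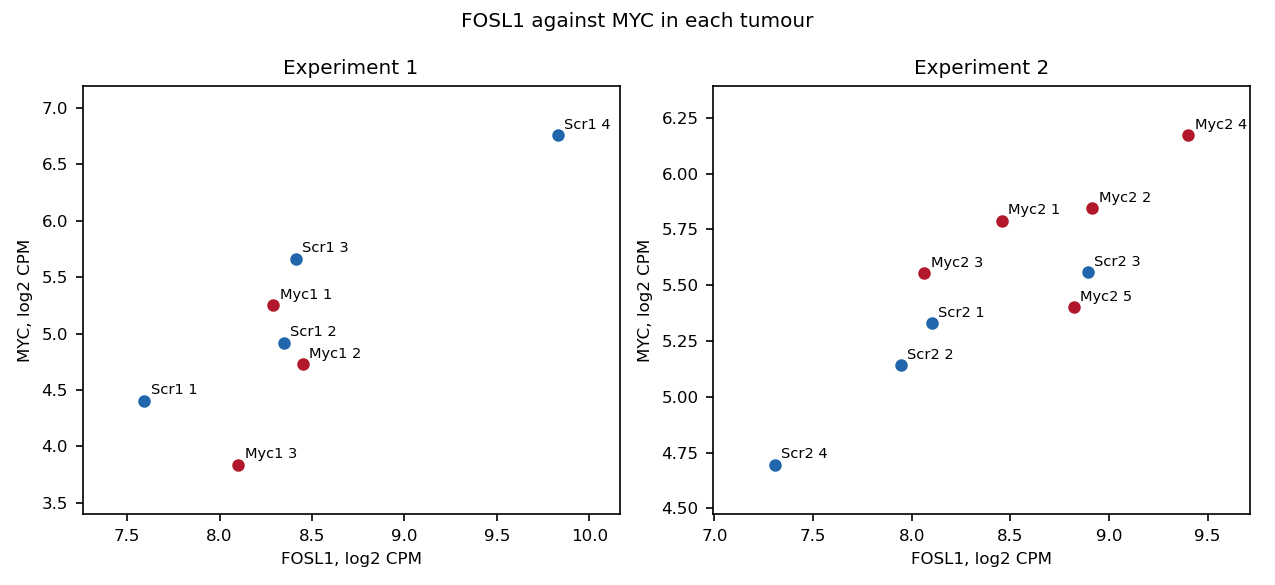
FOSL1 against MYC in each tumour, both in log2 CPM, for experiment 1 (left, n = 7) and experiment 2 (right, n = 9); red points are tumours labelled Myc, blue points those labelled Scr. The points run upward from left to right in both panels, with Scr1 replicate 4 at the top of experiment 1 and Scr2 replicate 4 at the bottom of experiment 2.

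The genes whose pattern over the tumours was most like 3 of the group were listed by the mean of their r in both tables, over 7 and 9 tumours. For FOS these were MAFF (0.853), a small Maf protein of the bZIP class, CITED2 (0.842), the chemokine CXCL1 (0.823), ZNF395 (0.818) and RTN4RL2 (0.808). For EGR1 they were DUSP6 (0.870), the cytoplasmic phosphatase of ERK, RP11-157P1.4 (0.857), IRF2BP2 (0.857), ZNF829 (0.825) and CPT1B (0.814). For JUN they were ENGASE (0.899), PDDC1 (0.896), the kinase IKBKB (0.891), KIAA0753 (0.890) and ZBTB17 (0.890), which encodes the MYC partner MIZ1. Both groups of a table were pooled here too. With so few tumours, high values arise for some of the many genes compared.

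Other parts of the pathway were followed through fixed lists. Among 16 further bZIP partners tested in experiment 2, 5 were higher in Myc2 at an unadjusted limma p under 0.05 and 0 lower, where 7% of all genes were higher at that p, and the median was 0.23 (0.02 without Scr2 replicate 4). Among them were FOSL2, which encodes FRA-2 (1.07 ± 0.34), and the Maf genes MAFG (0.63 ± 0.24), MAFF (1.11 ± 0.44) and MAFK (0.66 ± 0.29). The Myc2 tumours averaged 7.14 ± 0.42 log2 CPM of FOSL2 (SD, n = 5), against 6.08 ± 0.78 for Scr2 (SD, n = 4). In experiment 1, 1 of the 16 was under that p, and the median was -0.02. The count in experiment 2 was 2 without Myc2 replicate 2, without Myc2 replicate 3, without Scr2 replicate 4 and without Scr2 replicates 1 and 4, and 3 without Myc2 replicate 4, Scr2 replicate 1 or Scr2 replicate 3. All-gene counts, in either direction, moved too, from 710 to 3878 of 14208 with 1 library left out.

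Of 27 other immediate early genes tested in experiment 2, 9 were higher at an unadjusted limma p under 0.05 (7% of all genes were) and 0 were lower. Above 0 lay 19 of the 27, against 48.2% of all genes, and the median was 0.34 (0.21 without Scr2 replicate 3). The 6 with the smallest p were NFIL3, a bZIP repressor (1.51 ± 0.35), EGR2 (1.41 ± 0.34), the mRNA decay factor ZFP36L1 (1.03 ± 0.28), PPP1R15A, a regulator of translation under stress (1.12 ± 0.34), the matrix protein gene CYR61 (0.78 ± 0.29) and the GTPase gene RHOB (0.80 ± 0.30). Added over the list, these genes came to 1440 to 2004 CPM in Myc2 and 927 to 1279 CPM in Scr2. In experiment 1, RHOB was the only gene of the list under that p (0.77 ± 0.33), the median was -0.12, and Scr1 replicate 4 held the highest sum (1745 CPM). The count in experiment 2 was 5 without Scr2 replicate 4 and 6 without Scr2 replicates 1 and 4. Of all 14208 genes, 710 and 486 were under that p in these settings, in either direction.

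Upstream kinases and factors lay near 0. Of 25 tested in experiment 2, 0 were under an unadjusted limma p of 0.05 in either direction, where 1898 of all 14208 genes were. The median was 0.05, or -0.03 without Scr2 replicate 4. Without Scr2 replicate 2, 2 were higher and 1 lower at that p, where 3878 of all 14208 genes were under it. SRF differed by 0.07 ± 0.20, ELK1 by -0.01 ± 0.16 and MAPK8 (JNK1) by 0.20 ± 0.20. In experiment 1, RPS6KA2, a ribosomal S6 kinase, was higher (1.05 ± 0.31) and MKL1, an SRF coactivator, lower (-0.65 ± 0.29) at an unadjusted p under 0.05, and the median was -0.11. These are RNA levels and say nothing of phosphorylation. Of 13 feedback inhibitors of the DUSP and Sprouty families, 11 lay above 0 in experiment 2 (48.2% of all genes did) with a median of 0.44, and 0 were under an unadjusted limma p of 0.05. Under that p were 4 of the 13 without Scr2 replicate 3, 3 without Myc2 replicate 3, 2 without Myc2 replicate 1 and 1 without Scr2 replicate 1, all higher in Myc2. The count over all 14208 genes, in either direction, also moved with the library left out, from 710 to 3878. These counts of feedback inhibitors were not compared with it setting by setting. DUSP6 differed by 0.77 ± 0.37 and the Sprouty gene SPRY4 by 1.02 ± 0.47. In experiment 1 the median was -0.08. The feedback median in experiment 2 was 0.26 without Scr2 replicate 4 and 0.17 without Scr2 replicates 1 and 4.

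Of 24 known AP-1 targets listed, 19 had values in experiment 2 and 15 were above the expression minimum and tested. MMP1, MMP3, MMP10, MMP13 and AREG were absent from its table, so most of the listed matrix metalloproteinases are not covered. Among the 15 tested, 7 were higher at an unadjusted limma p under 0.05 (7% of all genes were), 0 were lower and the median was 0.56. Those with the smallest p were the angiogenic factor gene VEGFA (2.80 ± 0.61), the urokinase gene PLAU (0.92 ± 0.26), the cytokine genes LIF (0.91 ± 0.34), IL8 (2.78 ± 1.13) and IL6 (1.26 ± 0.56), and the cyclin gene CCND1 (0.51 ± 0.23). In experiment 1, 0 of the 15 were under that p, with a median of 0.21. The count in experiment 2 was 2 without Myc2 replicate 4 or Scr2 replicate 4, 3 without Myc2 replicate 2 or Scr2 replicates 1 and 4, and 4 without Myc2 replicate 3, Scr2 replicate 1 or Scr2 replicate 2. Among all 14208 genes, 710 were under that p without Scr2 replicate 4 and 3878 without Scr2 replicate 2, in either direction. Many of these genes answer to other factors as well; VEGFA is on the hypoxia list too.

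**Figure D5:**
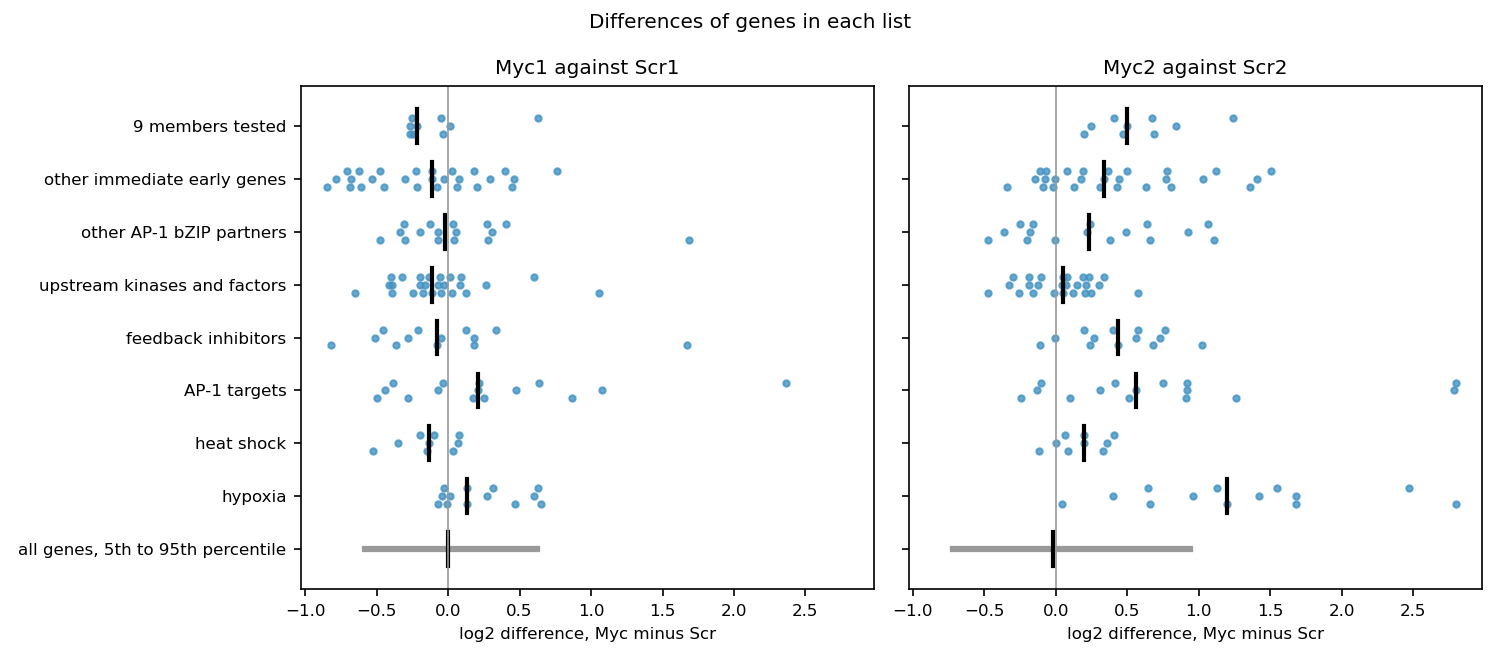
Log2 difference of each tested gene by list (points) with the list's median (black bar), for experiment 1 (left) and experiment 2 (right); the grey bar spans the 5th to 95th percentile of all genes tested. In experiment 2 the medians run from 0.05 (upstream kinases and factors) to 1.20 (hypoxia), and that of the 9 genes tested is 0.50; in experiment 1 it is -0.21.

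Other signals moved with experiment 2 and are given beside it. Of 13 hypoxia genes, 13 lay above 0 in Myc2 (48.2% of all genes did), 7 of them at an unadjusted limma p under 0.05 (7% of all genes), with a median of 1.20. In experiment 1 their median was 0.14, or -0.28 without Myc1 replicate 3 and 0.41 without Myc1 replicate 1 or 2. Beside VEGFA the smallest p were those of DDIT4, an inhibitor of mTORC1 (1.42 ± 0.29), the glucose transporter genes SLC2A3 (1.55 ± 0.38) and SLC2A1 (1.68 ± 0.56), NDRG1 (2.47 ± 0.74) and ADM (1.68 ± 0.58). The count was 11 without Myc2 replicate 3 and 3 without Scr2 replicates 1 and 4. In the latter setting 486 of all 14208 genes were under that p, in either direction. With 1 library left out the all-gene count ran from 710 to 3878. Their summed level was 3740 to 10396 CPM in Myc2 and 3392 to 5647 CPM in Scr2. Of 9 heat shock genes, a class that answers to stress and handling, 8 lay above 0 with a median of 0.19 (3 of 9 and -0.05 without Scr2 replicates 1 and 4), and 0 were under that p; their sum was 4467 to 7502 CPM in Myc2 and 4023 to 6579 CPM in Scr2. Astrocyte markers, of which 5 of 6 were in the table, came to 204 to 841 CPM in Myc2 and 169 to 488 CPM in Scr2. The astrocyte markers with the highest levels were GJA1 (121 to 573 CPM) and SLC1A3 (39.8 to 252 CPM), while the defining marker GFAP was at 1.26 to 2.83 CPM. Of 9 microglia and macrophage markers 3 were in the table, at 178 to 277 CPM in Myc2 and 163 to 268 CPM in Scr2, nearly all of it CD68, while PTPRC reached at most 1.10 CPM. Endothelial markers (4 of 6) came to 3.09 to 10.98 CPM in Myc2 and 2.47 to 5.19 CPM in Scr2. Pericyte markers (4 of 5) came to 309 to 437 CPM in Myc2 and 179 to 416 CPM in Scr2. Over both groups PDGFRB stood at 110 to 362 CPM, CSPG4 at 48.5 to 158 CPM and ABCC9 at 14.2 to 24.4 CPM. RGS5 reached at most 4.92 CPM. The neuronal (3 of 6) and oligodendrocyte (1 of 5) markers had their highest sum in Scr2 replicate 3, and MBP was at most 1.27 CPM. The part of any of these in the differences of JUN, JUNB and the other genes was not tested. The time between death and freezing was not given in the sources used here. All identifiers are human, and whether the marker values come from U87 cells or from mouse reads was not tested. In bulk tumours, fewer cells of a type and less RNA per cell cannot be told apart.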

How the data were processed

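RNA (integrity number 7.2 or more) of 16 tumours was sequenced on the Illumina NextSeq, per the labels' protocols. The tools STAR 2.6.0b, bcl2fastq 2.20.0 and Picard, with hg19 and mm10 as builds, come from the submitters' processing notes; the counting, annotation and handling of mouse reads were not given in the sources used here. Deposited by the authors were log2 CPM, 1 table per experiment. The unit was read from the values: taken back from log2 they sum to 995054 to 998392 in every library, and sorted values of a table coincide within 0.0201 log2 units over the upper part of the range, so they had been quantile-normalized. A change in most genes at once is therefore not visible, and levels were compared only within a table. 0 identifiers were other than human Ensembl genes.

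Library sizes and the reads behind low values were estimated from the steps between a library's distinct values (steps 20 to 60 for the size). Each pair of groups was fitted in R 4.3.3 by limma 3.58.1 (trend and robust) on the deposited values, for genes with at least 1 CPM in at least 3 (experiment 1) or 4 libraries (experiment 2), and in at least 3 of each table for the contrast of both, with Benjamini-Hochberg adjustment over all genes tested and a threshold of 0.05. The fits were also run on simulated independent values with a larger added difference than any of the 10 genes had. That run therefore does not bear on differences of the size seen here. For each of the 10 genes an exact two-sided permutation of the group labels was run too. Alternatives were log2(CPM + 0.1) and log2(CPM + 1), no minimum, limma without trend and robust settings, 1 fit over the 4 groups, leaving out each library in turn and leaving out Scr2 replicates 1 and 4. List counts without libraries were added after seeing the data. Replicates were numbered in accession order and are not paired. The p-values measure the spread between mice of an experiment.

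The 10 genes and the lists (7 lists of pathway, stress and hypoxia genes, written from general knowledge) were chosen with earlier results of these data known. Of each list, up to 6 genes at an unadjusted p under 0.05 are named, those with the smallest p; other list genes (SRF, ELK1, MAPK8, DUSP6 and SPRY4) were named after their values were seen. The values of some list genes are not reported here. The 5 genes most like FOS, EGR1 and JUN were taken by mean Pearson r. Exon lengths came from GENCODE release 29 and promoters from RefSeq (GRCh38.p14). Of the erythroid, neutrophil and lymphocyte markers, fixed for the check of other cells, 0 were present in either table.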

Additional observations from a re-analysis of the deposited data

How the results depend on the processing

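Over other pseudocounts, no minimum, limma without trend and robust settings and 1 fit over the 4 groups, no value changed sign. The number of the 9 genes at an unadjusted p under 0.05 ran, with 1 library left out, from 0 to 1 in experiment 1 (0 with all), 2 to 4 in experiment 2 (2 with all) and 0 to 5 for the contrast (1 with all); without Scr2 replicates 1 and 4 it was 1 in experiment 2. Over all genes the same count was 485, 1898 and 1200, and at the lowest 177 (without Myc1 replicate 3), 710 and 532 (both without Scr2 replicate 4) when 1 library was omitted, and at the highest 3878 and 2770 for the last 2 (without Scr2 replicate 2), and 486 and 178 for the last 2 without Scr2 replicates 1 and 4. In experiment 1 leaving out 1 library moved FOS from -0.00097 to 1.32, FOSL1 from -0.58 to 0.16, JUN from -0.49 to 0.18, JUNB from -0.25 to 0.15, JUND from -0.22 to 0.12, EGR1 from -0.91 to 0.29, ATF3 from -0.11 to 0.21 and DUSP1 from -0.70 to 0.32, so 8 of the 9 changed sign under at least 1 omission and IER2 (-0.46 to -0.07) did not. EGR1 was 3.26e-05 without Scr1 replicate 3. The sign changes came without Scr1 replicate 4 (FOSL1, JUNB, JUND, EGR1 and DUSP1), Myc1 replicate 1 (JUN, JUNB and JUND), Scr1 replicate 3 (JUN, JUNB and EGR1), Myc1 replicate 3 (FOS and ATF3), and Myc1 replicate 2, Scr1 replicate 1 or Scr1 replicate 2 (ATF3). In experiment 2 none of the 9 changed sign; with 1 library left out FOS ran from 0.03 to 0.83, FOSL1 from 0.42 to 0.95, JUN from 0.72 to 0.98, JUNB from 0.38 to 0.60, JUND from 0.20 to 0.34, EGR1 from 0.61 to 1.71, ATF3 from 0.39 to 0.95, DUSP1 from 0.26 to 0.60 and IER2 from 0.14 to 0.31. In experiment 1 the list medians moved as well: bZIP partners from -0.12 (without Scr1 replicate 3) to 0.02 (Myc1 replicate 2), other immediate early genes from -0.31 (Scr1 replicate 1) to 0.06 (Scr1 replicate 4), upstream genes from -0.15 (Myc1 replicate 2) to -0.02 (Myc1 replicate 3), feedback inhibitors from -0.43 (Scr1 replicate 1) to 0.02 (Scr1 replicate 3), AP-1 targets from 0.02 (Scr1 replicate 1) to 0.29 (Myc1 replicate 2) and heat shock genes from -0.34 (Myc1 replicate 2) to 0.05 (Myc1 replicate 1). The FOS contrast ran from -0.41 to 0.91 and was -0.12 without Scr2 replicates 1 and 4. Over every setting the adjusted p of JUN in experiment 2 ran from 0.107 to 0.999 and that of JUNB from 0.159 to 0.920. Without Myc2 replicate 3, VEGFA (3.30, limma adjusted p = 0.0440), SLC2A3 (1.90, 0.0418) and NDRG1 (3.17, 0.0440) passed the adjusted threshold in experiment 2. No paired analysis was possible because the labels give the tumours no shared replicate numbers. Few tumours and, for FOS, FOSB and EGR1, few reads in Scr1 replicate 3 and Scr2 replicate 4 limit the precision.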
